A study of Homo sapiens with 4 samples.

Results

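Protocadherins are a family of 65 genes among the 18132 genes measured here, chosen as all gene symbols that begin with PCDH, without antisense symbols, pseudogenes or Y-linked genes. They fall into 53 clustered genes and 12 non-clustered genes, which lie outside the clusters. The clustered genes lie side by side on chromosome 5 in an alpha cluster of 15, a beta cluster of 16 and a gamma cluster of 22. The gene table of assembly GRCh38.p14 lists 65 such protocadherins as well. All 65 had a probe set (a group of probes that the array reads together) annotated with their symbol alone. A further 2 symbols of the family, PCDHB17P and PCDHB18P, are pseudogenes and were left out of the counts. Each gene was read from its brightest probe set (by the mean of the arrays) among those annotated with a single symbol.

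The RNA came, per the labels, from Hs578T, a human breast cancer line with mesenchymal features. The cells labelled ELK3 knockdown carried an shRNA against ELK3 delivered by lentivirus and kept as a stable population (arrays numbered 1 and 5). The cells set against them are labelled ELK3 sh control (arrays numbered 1 and 2), and what their control vector holds is not described in the labels used here. ELK3 is one of the ternary complex factors, ETS-domain proteins that bind DNA together with serum response factor. What the numbers mark (separate constructs, clones or dishes) is not stated in the labels, and the p-values measure only the spread between these 4 arrays, which may be technical.

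Protocadherins are the largest group of cadherin-related adhesion proteins and are best known from the nervous system. The beta genes have a single large exon. Each alpha or gamma transcript joins its own variable exon to constant exons that all genes of the cluster share, and in neurons each cell picks a few variable promoters, helped by CTCF and cohesin, which loop the promoters to distant enhancers. The encoded proteins bind like to like between cells, and the non-clustered members (delta-1, delta-2 and a few others) act in cell sorting, axon growth and, in tumours, often as genes silenced by methylation.

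ELK3 itself was lower, at 8.09 and 7.92 in ELK3 knockdown arrays 1 and 5, against 10.05 and 10.07 in sh control arrays 1 and 2. All values are log2 signals after RMA normalization by the authors, so a difference of 1 is 2-fold. This was a 4.16-fold fall (limma log2 change -2.06 with an SE of 0.09, adjusted p = 2.57e-06), with means of 8.00 ± 0.11 and 10.06 ± 0.016 (SD, n = 2 each). The arrays of the groups stood far apart: over all probe sets r was 0.996 between the knockdown arrays and 0.998 between the control arrays, against 0.902 to 0.904 across the groups. At an adjusted p under 0.05, 50.8% of all genes changed, 29.5% higher and 21.3% lower. The markers of the labelled line moved too. All 14 mesenchymal markers were lower, with a summed linear signal of 14996 to 15944 in the knockdown arrays, against 119779 to 124787 in the control arrays. Of the 14, 6 (AXL, CDH11, COL1A2, COL6A3, POSTN and THY1) lay below the median of the array values in both knockdown arrays, at 3.57 to 5.82, against 10.83 to 13.77 in the control arrays. The others (VIM, CDH2, FN1, SPARC, TWIST1, ZEB1, S100A4 and CD44) were lower but stayed above that median in both knockdown arrays. Their knockdown means ran from 7.89 (FN1, against 14.07 in the control arrays) to 13.12 (VIM, against 14.29). Of 10 epithelial markers 5 were higher and 0 lower (14842 to 18368, against 2158 to 2232), while CDH1 and EPCAM, which define that type, were near the dim end in every array. Of 12 neuronal markers 1 was higher (NEFL) and 2 lower (TUBB3, SYT1), with sums of 3809 to 3999 in knockdown arrays and 4262 to 4458 in control arrays. Embryonic kidney markers split, with 3 higher and 3 lower of 8 measured (1227 to 1266, against 882 to 1040). Endothelial markers had 2 of 6 lower (308 to 310, against 392 to 403), and leukocyte markers 1 of 5 higher (398 to 402, against 330 to 341). The higher leukocyte marker was NCAM1 (means of 7.64 and 6.95), while PTPRC, CD3E, CD14 and NKG7 did not pass. In the 6 mesenchymal markers below the median, the arrays labelled ELK3 knockdown go against the line named in their labels. Whether the RNA of these arrays came from that line was not tested. Every difference below is therefore one between the arrays so labelled, which are called by their label throughout, and the part of these shifts in it was not tested. In RNA from bulk cells, fewer cells of a type and less RNA per cell cannot be told apart.

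The clustered genes are shown first by the letters before their starts, because most of their promoters share a short element around which CTCF is known to bind. The promoter table of RefSeq (GRCh38.p14, 250 bases before to 50 after each start) held 47 of the 53 clustered genes and 10 of the 12 non-clustered ones. PCDH10 and PCDH20 are not among them. The letters CGCT, known as the core of this element, occurred on the gene's own strand in 46 of 47 clustered promoters, against 57.7% of all 27305 promoters in the table (71.9% on either strand). The longer string GNCGCTG, which contains CGCT, was picked from many candidate strings and variants after these promoters had been read. A high share in them was therefore built in by the choice and is no test. The string occurred on the gene's strand in 36 of 47 (also 36 on either strand), against 17.3% of all promoters, or 28.9% on either strand. It was found in 6 of 13 alpha, 12 of 14 beta and 18 of 20 gamma promoters, and in 0 of 10 non-clustered ones (2 on either strand). In the 36 promoters the element lay a median of 55 bases before the start, and within 20 to 80 bases before it in 31. The 10 windows below, each 40 bases long and written 5′ to 3′ in the gene's direction, show beta and gamma genes that passed the threshold beside PCDHB3 and PCDHGA4, which did not, and 2 alpha genes, neither of which passed. Capitals mark GNCGCTG.

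PCDHA1 (chr5:140786085-140786124, plus strand): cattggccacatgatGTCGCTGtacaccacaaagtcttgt
PCDHA8 (chr5:140841129-140841168, plus strand): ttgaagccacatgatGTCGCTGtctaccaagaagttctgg
PCDHB2 (chr5:141094543-141094582, plus strand): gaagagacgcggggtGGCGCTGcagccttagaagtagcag
PCDHB3 (chr5:141100392-141100431, plus strand): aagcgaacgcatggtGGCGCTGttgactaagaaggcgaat
PCDHB13 (chr5:141213864-141213903, plus strand): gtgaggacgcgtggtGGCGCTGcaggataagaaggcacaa
PCDHB15 (chr5:141245313-141245352, plus strand): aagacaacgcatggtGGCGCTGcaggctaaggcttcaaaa
PCDHGA1 (chr5:141330402-141330441, plus strand): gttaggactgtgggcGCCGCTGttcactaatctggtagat
PCDHGB1 (chr5:141350024-141350063, plus strand): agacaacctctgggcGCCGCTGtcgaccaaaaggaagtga
PCDHGA4 (chr5:141354959-141354998, plus strand): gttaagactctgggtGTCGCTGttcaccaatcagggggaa
PCDHGA7 (chr5:141382648-141382687, plus strand): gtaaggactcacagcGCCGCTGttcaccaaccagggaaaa

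The letters of the element followed the cluster a gene belongs to. With the 2 bases before it, the element read ATGTCGCTG in 6 of 6 alpha promoters and GTGGCGCTG in 12 of 12 beta promoters. The gamma promoters had 5 forms, led by GCGCCGCTG in 10 of 18. PCDHB2, which was higher in the knockdown arrays, and PCDHB13 and PCDHB15, which were lower, carry the same 9 letters. Among clustered genes with a promoter in the table, GNCGCTG was present in 12 of 13 that were lower, in 1 of 2 that were higher and in 23 of 32 that did not pass. These counts are mixed with the cluster. The alpha promoters, of which 6 of 13 had the string, belong to no gene that was lower. In the beta and gamma clusters 12 of 14 and 18 of 20 had it. A link between the string and the calls was not tested. These matches describe the letters and say nothing of binding in these cells. An ETS-type string, CCGGAAGT, was found in 0 of the 57 protocadherin promoters on either strand, against 4.95% of all promoters, which says only that these letters are not in these windows.

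The clustered genes past the threshold whose tabled promoter has CGCT but not GNCGCTG on its strand are shown whole, followed by PCDH9 and PCDH18, the non-clustered genes in the table with the largest rise and the largest fall. Each stretch is 300 bases of GRCh38.p14 in the gene's direction, with every CGCT in capitals.

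PCDHAC2 (chr5:140966226-140966525, plus strand): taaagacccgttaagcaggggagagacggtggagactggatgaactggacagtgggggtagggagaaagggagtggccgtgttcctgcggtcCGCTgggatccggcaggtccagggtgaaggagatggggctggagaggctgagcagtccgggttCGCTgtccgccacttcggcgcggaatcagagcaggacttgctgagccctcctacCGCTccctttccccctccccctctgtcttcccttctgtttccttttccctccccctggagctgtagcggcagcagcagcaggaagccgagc
PCDHB14 (chr5:141223093-141223392, plus strand): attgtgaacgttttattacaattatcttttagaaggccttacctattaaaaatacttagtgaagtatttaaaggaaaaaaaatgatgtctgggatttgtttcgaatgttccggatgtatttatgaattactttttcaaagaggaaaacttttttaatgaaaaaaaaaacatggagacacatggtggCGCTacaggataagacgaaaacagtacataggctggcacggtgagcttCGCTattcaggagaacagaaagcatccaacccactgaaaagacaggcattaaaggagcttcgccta
PCDH9 (chr13:67230287-67230586, minus strand): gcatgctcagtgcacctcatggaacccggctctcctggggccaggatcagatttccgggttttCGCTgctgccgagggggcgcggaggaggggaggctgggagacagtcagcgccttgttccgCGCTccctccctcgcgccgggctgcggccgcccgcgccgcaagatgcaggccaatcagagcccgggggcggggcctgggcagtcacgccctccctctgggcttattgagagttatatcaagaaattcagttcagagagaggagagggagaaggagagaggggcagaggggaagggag
PCDH18 (chr4:137532445-137532744, minus strand): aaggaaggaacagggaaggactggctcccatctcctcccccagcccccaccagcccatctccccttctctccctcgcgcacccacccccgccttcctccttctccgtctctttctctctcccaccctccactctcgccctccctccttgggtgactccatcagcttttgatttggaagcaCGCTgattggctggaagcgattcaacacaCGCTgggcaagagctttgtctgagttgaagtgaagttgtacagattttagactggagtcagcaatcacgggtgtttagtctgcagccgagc

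PCDHAC2 is the last gene of the alpha cluster and is known to be expressed from a promoter of its own type, outside the choice among variable promoters. PCDHB14 lies in the part of the beta cluster where the largest falls were measured.

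Across the family, 6 protocadherins were higher and 16 lower in the knockdown arrays, and 43 did not pass. That is 33.8% called, against 50.8% of all genes. The share that was higher (9.23%) lay below the 29.5% of all genes, and the share that was lower (24.6%) lay near the 21.3%. The groups did not overlap for 49 of 65 members (75.4%), close to the 75.3% of all genes. The median change was -0.17, against -0.01 for all genes, and 53 of 65 members were below 0 (81.5%, against 51.2% of all genes). Most members were dim: 57 of 65 (87.7%) had a mean below 6.78 (the median over the whole table) in both groups, against 38.5% of all genes. An RMA value carries no call of detection, so a small change near the dim end cannot be told from background light. Of the 24 members under 5 in both groups, 5 passed the threshold. The share called among all genes that dim was not counted, so this says nothing particular of the members. With genes under 5 in both groups left out, 6 of 41 members were higher and 11 lower, against 5324 and 3690 of 15079 genes. The shares of members and of all genes given above are not matched for brightness. A change past the threshold of more than 2-fold was measured for 5 higher and 4 lower members, against 17.7% of all genes in either direction.

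Among genes read from probe sets of their own, the non-clustered ones held the largest rise and the largest fall. Of 12, 4 were higher (PCDH20, PCDH9, PCDH7 and PCDH10), 1 was lower (PCDH18) and 7 did not pass. The share higher was 33.3%, near the 29.5% of all genes, and the share lower 8.33%, against 21.3%.

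PCDH20, a protocadherin often silenced by methylation in carcinomas, had signals of 7.32 and 7.16 in the knockdown arrays, against 3.97 and 3.77 in the control arrays. It lay in the middle of the scale in both knockdown arrays and at its dim end in both control arrays. Its means were 7.24 ± 0.11 and 3.87 ± 0.14 (SD, n = 2 each), which is 10.3-fold higher (log2 change 3.37, SE 0.12, limma adjusted p = 1.12e-06). Because the control values lie at the dim end, the fold may be set in part by the floor of the array. Its other probe set, dimmer in every array, rose by 1.41, and the mean of the probe sets gave 2.39.

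PCDH9, a delta-1 protocadherin expressed in the developing brain, lay a little above the middle of the scale already in the control arrays. There 58.0% of all genes had a lower mean. PCDH9 had 11.07 and 10.84 in the knockdown arrays, against 7.92 and 8.02 in the control arrays, with no overlap. The rise was 7.93-fold (log2 change 2.99, SE 0.098, limma adjusted p = 8.36e-07). A different bright probe set gave 11.14 and 10.92 against 7.73 and 7.80, a change of 3.26, and the third, dim one gave 0.75. The mean of the probe sets was 2.33.

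PCDH7, a delta-1 protocadherin whose protein is known to bind the phosphatase inhibitor SET, had 9.53 and 9.57 in the knockdown arrays, against 8.46 and 8.29 in the control arrays. It rose 2.26-fold (log2 change 1.18, SE 0.092, limma adjusted p = 3.99e-05), and all 5 of its probe sets were higher, by 0.62 to 1.77. PCDH10, a delta-2 protocadherin that recruits the WAVE actin complex and is often methylated in tumours, had 6.78 and 7.14, against 6.15 and 5.65. The groups were apart, but each pair was spread. Its change was 1.06 (2.09-fold, SE 0.20, limma adjusted p = 0.00314) by the brightest probe set, while the other 3 changed by 0.05, 0.15 and 0.25 and did not pass. The mean of the 4 probe sets was 0.38, so the size rests on 1 probe set.

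PCDH18, a delta-2 protocadherin whose protein interacts with the adaptor DAB1 in mouse, was the only non-clustered member that fell. It had 7.32 and 7.33 in the knockdown arrays, against 9.87 and 9.58 in the control arrays. The fall was 5.29-fold (limma log2 change -2.40 with an SE of 0.12, adjusted p = 4.19e-06). All 5 of its probe sets were lower, by -2.68 to -0.73, and their mean gave -1.74. The mesenchymal markers were all lower in the same arrays, as were 21.3% of all genes. Whether the fall of PCDH18 is linked to those markers was not tested.

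**Figure D1:**
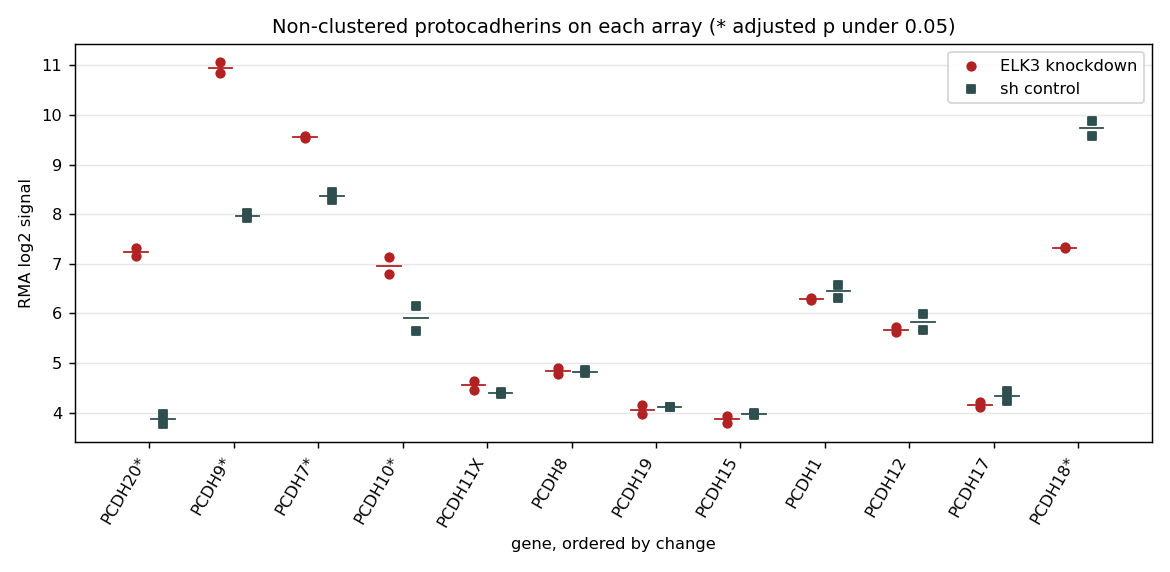
RMA log2 signals (y axis) of the 12 non-clustered protocadherins (x axis, ordered by change), with 1 point per array, ELK3 knockdown arrays as circles on the left and sh control arrays as squares on the right of each pair, and lines at the group means. PCDH20, PCDH9, PCDH7 and PCDH10 sit higher in the knockdown arrays, PCDH18 lower, and the 7 others differ by -0.17 to 0.15.

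By subfamily, the 4 delta-1 genes had 2 higher (PCDH7, PCDH9) and 2 that did not pass (PCDH1, PCDH11X), and the 5 delta-2 genes had 1 higher (PCDH10), 1 lower (PCDH18) and 3 that did not pass (PCDH8, PCDH17, PCDH19). Of the others, PCDH20 was higher, and PCDH12, a protocadherin of endothelium, and PCDH15, part of the tip link of inner-ear hair cells, did not pass. These subfamily counts are small and stand beside 29.5% of all genes higher and 21.3% lower. The 7 non-clustered genes that did not pass changed by -0.17 to 0.15. The brightest of them was PCDH1, an adhesion protein of airway epithelium, with 6.28 and 6.32 in the knockdown arrays, against 6.30 and 6.58 in the control arrays (log2 change -0.14, limma adjusted p = 0.405). Averaging its probe sets turned the change to 0.019.

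The alpha cluster gave different readings by different kinds of probe set. Of the 15 genes read from probe sets of their own, 1 was higher (PCDHAC2), 0 were lower and 14 changed by -0.28 to -0.0061 without passing. That is 6.67% higher and 0% lower, against 29.5% and 21.3% of all genes. PCDHAC2 had 5.27 and 5.58 in the knockdown arrays, against 4.99 and 5.03 in the control arrays, with the rise larger in knockdown array 5 (log2 change 0.42, 1.33-fold, SE 0.13, limma adjusted p = 0.0314). The call was lost without knockdown replicate 5 (0.26), without control replicate 1 (0.40) or without control replicate 2 (0.44). PCDHA4, the alpha gene with the highest mean signal, had 6.77 and 6.81, against 6.84 and 6.95 (log2 change -0.10, limma adjusted p = 0.475). PCDHA9 lay just outside the threshold at -0.27 (limma adjusted p = 0.0619).

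The array also holds 6 probe sets that are annotated with all 15 alpha symbols at once. They name no gene and were read as probe sets of the cluster. Because they may read the same transcripts, the 6 cannot be taken as independent readings. All 6 were higher in the knockdown arrays, where 27.0% of all probe sets were higher (limma over all probe sets). The largest change had signals of 7.38 and 8.07 in the knockdown arrays, against 3.53 and 3.47 in the control arrays, a rise of 4.22 on the log2 scale, or 18.6-fold (SE 0.21, limma adjusted p = 5.20e-06). The next had 7.82 and 8.53, against 4.52 and 4.23 (3.80, 13.9-fold, limma adjusted p = 1.26e-05). In both, the control arrays lie at the dim end, so the fold may be set in part by the floor of the array. The third had 6.77 and 7.36, against 4.52 and 4.81, and rose by 2.40 (limma adjusted p = 6.61e-05). The remaining changes were 2.26, 1.76 and 0.64, with adjusted p-values of 4.36e-05, 0.00165 and 0.0204, and the median of the 6 was 2.33. The calls dropped to 5 of 6 without knockdown replicate 5 or without control replicate 2.

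The knockdown arrays also differed from each other in this cluster. In all 6 shared probe sets knockdown array 5 was above knockdown array 1, by 0.52 to 0.99. Over all probe sets 1.08% had array 5 above array 1 by more than 0.5, and the median gap was 0.013. Between the control arrays the gaps ran from -0.29 to 0.29. Of the 15 alpha genes read from probe sets of their own, 11 had array 5 above array 1 and 4 below it, with gaps of -0.06 to 0.32, the highest in PCDHAC2. By contrast, the 18 probe sets of single alpha genes changed by -0.28 to 0.42 between the groups, and 1 of them passed. A shared probe set cannot tell which alpha gene its transcripts start from. The labelling kit primes at the 3′ end of transcripts, and where each probe set lies along them was not analysed here.

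**Figure D2:**
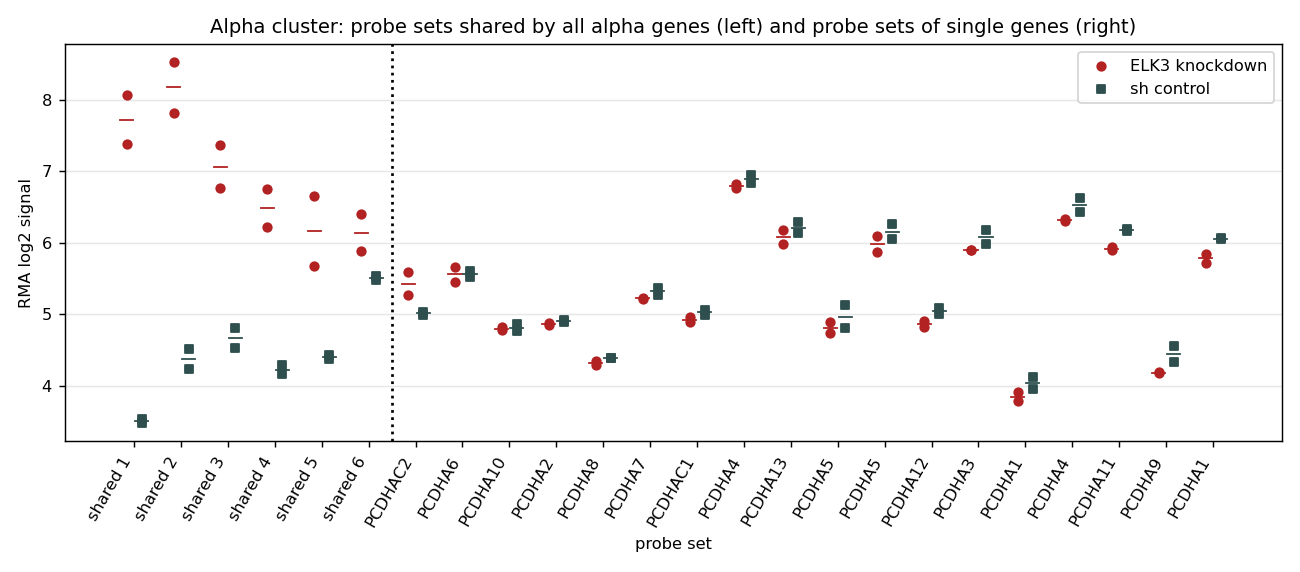
RMA log2 signals (y axis) of the 6 probe sets annotated with all 15 alpha symbols (left of the dotted line) and of the 18 probe sets of single alpha genes (right of it), with ELK3 knockdown arrays as circles, sh control arrays as squares and lines at the group means. The shared probe sets are higher in the knockdown arrays by 0.64 to 4.22, while those of single genes differ by -0.28 to 0.42.

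A probe set annotated with both PCDHA3 and PCDHA2 did not pass, at 3.72 and 3.76 in the knockdown arrays, against 3.67 and 3.65 in the control arrays (log2 change 0.07, limma adjusted p = 0.439). No probe set shared among gamma genes was found in the annotation, so the constant exons of that cluster have no such reading here.

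In the beta cluster, 1 gene was higher, 7 were lower and 8 changed by -0.23 to 0.20 without passing (median of the 16 genes -0.20). That is 6.25% higher and 43.8% lower, against 29.5% and 21.3% of all genes. PCDHB2 was the exception to the falls. It had 7.73 and 7.53 in the knockdown arrays, against 5.85 and 5.65 in the control arrays with no overlap, the largest rise among the clustered genes read from probe sets of their own. The change was 3.68-fold (log2 change 1.88, SE 0.13, limma adjusted p = 2.29e-05). Its second probe set rose by 1.89. A probe set annotated with both PCDHB3 and PCDHB2 was also higher, at 6.59 and 6.57 in the knockdown arrays, against 5.11 and 5.44 in the control arrays (log2 change 1.31, limma adjusted p = 2.06e-04), while the brightest of the 3 probe sets of PCDHB3 alone did not pass (4.44 and 4.50, against 4.56 and 4.72). Another of the 3 was lower, at 4.02 and 4.21, against 4.39 and 4.64 (-0.40, limma adjusted p = 0.0282 over all probe sets).

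PCDHB15 and PCDHB14, at the end of the cluster nearest the gamma genes, fell most. PCDHB15 had 3.81 and 3.67 in the knockdown arrays, against 5.51 and 5.38 in the control arrays (3.25-fold lower, limma log2 change -1.70 with an SE of 0.10, adjusted p = 1.08e-05). PCDHB14 had 3.86 and 3.92, against 5.54 and 5.34 (2.93-fold lower, log2 change -1.55, limma adjusted p = 1.93e-05). Both stood at the dim end in the knockdown arrays, so the folds may be set in part by the floor of the array, and each has 1 probe set. PCDHB13 had 5.01 and 4.61, against 5.68 and 5.86 (1.95-fold lower, log2 change -0.97, limma adjusted p = 0.00147), and 4 of its 5 probe sets were lower. PCDHB12 was lower by a smaller step, at 4.49 and 4.41, against 4.91 and 5.19 (log2 change -0.60, limma adjusted p = 0.00427). Its dimmer second probe set changed by -0.21 and did not pass (limma adjusted p = 0.244 over all probe sets). All 4 of these genes kept their call under each other fit tried.

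The other 3 beta genes that were lower were dim in every array and lost their call when 1 control array was left out. PCDHB10 had 3.97 and 4.13, against 4.79 and 4.34 (log2 change -0.51, limma adjusted p = 0.0274). PCDHB6 had 3.56 and 3.64, against 4.12 and 3.82 (-0.37, limma adjusted p = 0.0269). PCDHB7 lay just inside the threshold, with 3.87 and 3.83, against 4.32 and 4.02 (-0.32, limma adjusted p = 0.0499). In the fit over all probe sets this probe set did not pass (limma adjusted p = 0.0527), nor did the gene's other one (-0.03). In each of the 3, control array 1 was above control array 2, and without control replicate 1 the changes were -0.28, -0.22 and -0.17 with no call, which left 4 lower beta genes. PCDHB6 also lost its call without knockdown replicate 1, and PCDHB7 under 7 of the other fits.

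In the gamma cluster, 0 genes were higher, 8 were lower and 14 changed by -0.35 to 0.07 without passing (median of the 22 genes -0.24). That is 0% higher and 36.4% lower, against 29.5% and 21.3% of all genes. The largest falls were those of PCDHGA1, the first gene of the cluster, and PCDHGB1, near its start. PCDHGA7, from farther along the cluster, came next. PCDHGA1 had 4.73 and 4.53 in the knockdown arrays, against 5.73 and 5.69 in the control arrays. The fall was 2.11-fold (limma log2 change -1.08 with an SE of 0.11, adjusted p = 1.49e-04), and at -0.45, still past the threshold, with probe sets whose names mark cross-hybridisation left out. PCDHGB1 had 4.67 and 4.70, against 5.57 and 5.36 (1.72-fold lower, log2 change -0.78, limma adjusted p = 7.77e-04). Both of its probe sets were lower.

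PCDHGA7 had 5.12 and 5.35 in the knockdown arrays, against 5.96 and 5.81 in the control arrays (log2 change -0.65, limma adjusted p = 0.00384). PCDHGB2 had 5.38 and 5.47, against 5.94 and 6.03 (-0.56, limma adjusted p = 0.00373). PCDHGA2 had 4.54 and 4.27, against 4.95 and 4.87 (-0.51, limma adjusted p = 0.00859). For these 3 genes every knockdown value was below every control value, by steps under 2-fold. PCDHGA3 had 5.60 and 5.60, against 6.09 and 6.00 (-0.44, limma adjusted p = 0.0104), and without control replicate 1 the call was lost (-0.40). PCDHGC3, one of the C-type genes, expressed widely outside the promoter choice, had 5.07 and 5.04, against 5.49 and 5.44 (-0.41, limma adjusted p = 0.0104). PCDHGA12 had 4.64 and 4.68, against 4.87 and 5.04 (-0.30, limma adjusted p = 0.0444), and its call was lost after quantile normalization (-0.26) and without knockdown replicate 1 (-0.28), knockdown replicate 5 (-0.31) or control replicate 2 (-0.21).

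The brightest gamma genes did not pass. PCDHGB4 had 6.68 and 6.70 in the knockdown arrays, against 6.90 and 6.91 in the control arrays (log2 change -0.22, limma adjusted p = 0.133). PCDHGB5 had 6.66 and 6.66, against 6.53 and 6.64 (0.07, limma adjusted p = 0.640). PCDHGA11 had no settled direction: its brightest probe set gave -0.35 (limma adjusted p = 0.092), while another, at 4.79 and 4.75 against 4.19 and 4.31, gave 0.52 and passed.

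**Figure D3:**
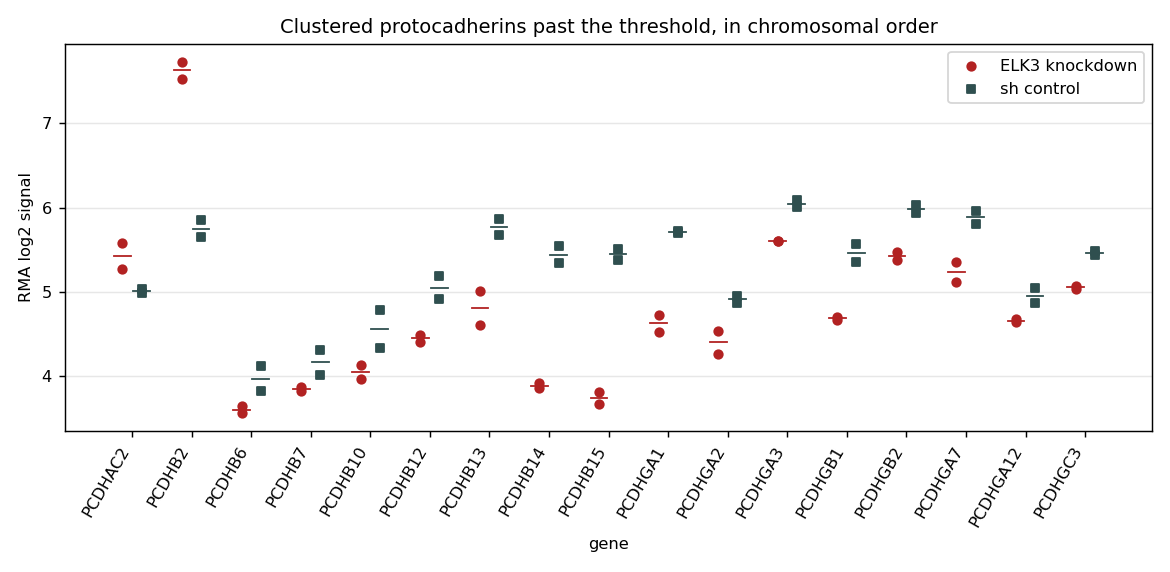
RMA log2 signals (y axis) of the 17 clustered protocadherins past the threshold (x axis, in chromosomal order), with ELK3 knockdown arrays as circles, sh control arrays as squares and lines at the group means. PCDHAC2 and PCDHB2 are higher in the knockdown arrays, and the 15 others are lower.

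Along the chromosome the falls were gathered where the beta cluster ends and the gamma cluster begins. From PCDHB10 to PCDHGB2, a stretch marked out after the values had been seen and therefore given no test, 10 of 12 protocadherins were lower and 0 were higher, with a median change of -0.58. Of the 41 other clustered genes, 5 were lower and 2 higher, with a median of -0.15. Among all genes 21.3% were lower and 29.5% higher. The pseudogene PCDHB18P, in the same stretch, was also lower, at 4.35 and 4.45 in the knockdown arrays, against 5.22 and 5.18 in the control arrays (-0.80, limma adjusted p = 3.05e-04). The beta genes are close copies of each other, and how far their probe sets read each other's transcripts was not analysed here.

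None of the 4 other tested genes in or beside the clusters that are not pseudogenes of the family was lower past the threshold. TAF7, which encodes a TFIID subunit and lies between the beta and gamma clusters, was higher, at 11.60 and 12.02 in the knockdown arrays, against 10.86 and 10.79 in the control arrays (0.98, limma adjusted p = 5.50e-04). SLC25A2, a mitochondrial ornithine carrier gene beside it, had -0.32 and did not pass (limma adjusted p = 0.0604). The nearest tested genes outside the clusters, ZMAT2 (0.55, limma adjusted p = 0.0122) and DIAPH1 (0.42, limma adjusted p = 0.0013), were higher. These neighbours were named for their place, after the values had been seen.

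**Figure D4:**
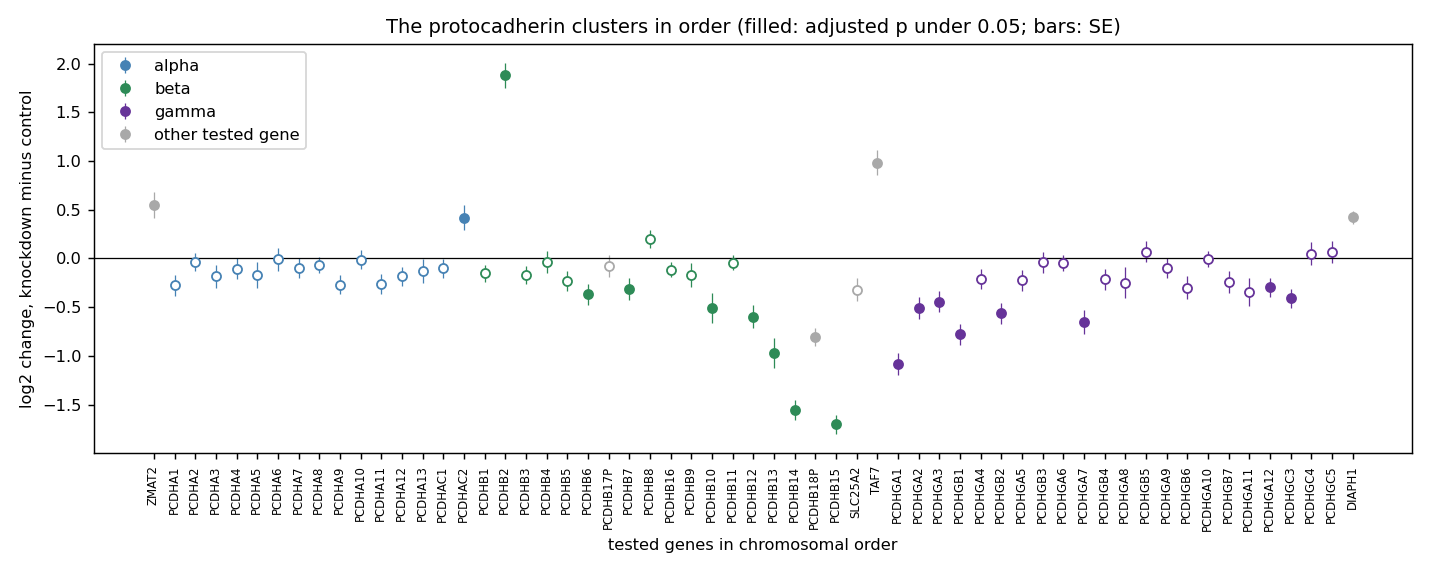
Log2 change, ELK3 knockdown minus sh control (y axis), of every tested gene of the alpha, beta and gamma clusters and their nearest neighbours, in chromosomal order (x axis, evenly spaced), with bars of 1 SE and filled points at an adjusted p under 0.05. PCDHB2 stands alone at 1.88, and the lowest points, PCDHB14 (-1.55), PCDHB15 (-1.70) and PCDHGA1 (-1.08), lie around the junction of the beta and gamma clusters.

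The probe sets of a gene mostly moved the same way. Of the 65 members, 31 had 1 single-symbol probe set and 34 had more, 123 probe sets in all, and 7 of the 22 called members rest on a single one. For 18 members the probe set read has a name that marks possible cross-hybridisation. The size of the change depended on the probe set more than its direction did: the fold of PCDH20, PCDH9, PCDH18 and PCDH10 shifted by over 1.5 times when their probe sets were averaged, and that of PCDHGA1 when cross-hybridising ones were dropped, as given above.

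**Figure D5:**
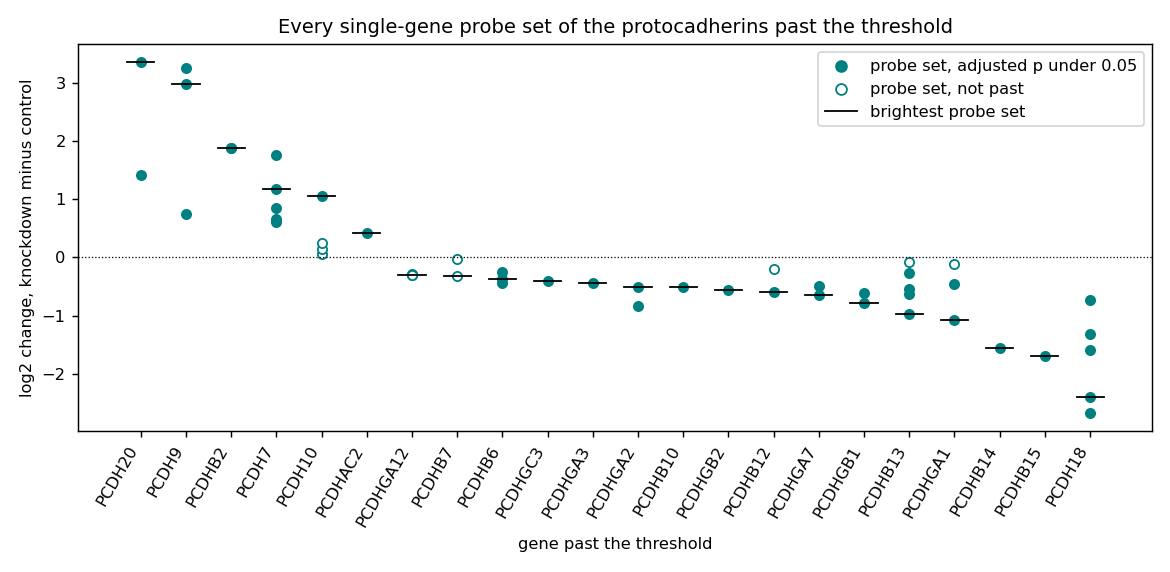
Log2 change, ELK3 knockdown minus sh control (y axis), of every single-symbol probe set of the 22 protocadherins past the threshold (x axis, ordered by change), filled where the probe set passed an adjusted p under 0.05 over all probe sets, with a line at the brightest probe set. All 5 probe sets of PCDH18 lie below 0 and all 5 of PCDH7 above it, while 1 of 4 passed for PCDH10.

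Genes that act on or with protocadherins were read from lists drawn up for this family. The cohesin and CTCF list, which serves the looping of clustered promoters, had 8 of 12 genes higher and 2 lower, with a median change of 0.46, against -0.01 for all genes. STAG2, a cohesin subunit, had 11.47 and 11.60 in the knockdown arrays, against 9.87 and 9.84 in the control arrays, a change of 1.68. SMC1A, a core subunit, changed by 1.24, PDS5A, a regulator of cohesin, by 0.72 and WAPL, which releases cohesin from DNA, by 0.71 (limma, all past the threshold). The core subunit RAD21 (-0.53) and STAG1 (-0.32) were lower. Without control replicate 1 or without control replicate 2 only 1 gene of this list was lower. CTCF itself did not pass, at 9.58 and 9.50, against 9.56 and 9.62 (-0.05).

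Among genes for repressors and DNA methylation, several of which are known to silence clustered protocadherins in mouse, 6 of 13 measured were higher, 2 were lower and the median was 0.19. DNMT3B, a de novo DNA methyltransferase that methylates clustered promoters in mouse, had 9.79 and 9.62 in the knockdown arrays, against 7.40 and 7.75 in the control arrays (2.13, or 1.43 with the mean of its probe sets). EHMT1 (1.72) and SETDB1 (1.45), histone H3 lysine methyltransferases, and TRIM28 (0.98), the corepressor that recruits SETDB1, were also higher. DNMT1, the maintenance methyltransferase, changed by -0.62 and UHRF1, its partner, by -0.40, both lower. SMCHD1, a repressor of the clusters in mouse, did not pass at 0.17. These are RNA signals, and no methylation or binding was measured.

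Of 21 measured genes for signalling and processing of protocadherins, 10 were higher and 4 lower (median 0.21). CYFIP2, a WAVE complex subunit that binds the tails of several delta protocadherins, had 10.14 and 10.21 in the knockdown arrays, against 5.41 and 5.18 in the control arrays, a change of 4.88 (3.92 with the mean of its probe sets). WASF3, a WAVE protein, had 9.79 and 9.69, against 5.50 and 5.68 (4.15, or 3.15 with that mean). The gamma-secretase subunit PSEN2 changed by 1.33 (0.53 with that mean) and the scaffold AXIN1, which the gamma protein C3 binds, by 1.18. The 4 that were lower were ADAM10 (-1.08), the sheddase that cuts clustered protocadherins, the kinase PTK2 (-0.76), which alpha and gamma proteins inhibit, and the WAVE subunits BRK1 (-0.68) and NCKAP1 (-0.33).

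The other non-classical cadherins split evenly, with 4 of 18 higher, 4 lower and a median of 0.0021. CELSR1, a planar polarity cadherin, had 9.26 and 9.64 in the knockdown arrays, against 4.22 and 4.38 in the control arrays (5.15, or 2.63 when its probe sets are averaged). Its control values lie at the dim end, so the size may be set in part by the floor of the array. CELSR2 (1.96) and FAT3 (1.30) were higher as well, and CLSTN2, a calsyntenin, was lower (-1.90, or -1.12 when averaged likewise). When cross-hybridising probe sets were dropped, 15 genes of this list were tested and 1 was lower. These lists were chosen with earlier results of these arrays known, and their counts stand beside 29.5% of all genes higher and 21.3% lower.

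The smallest p an exact permutation test can reach with 2 arrays against 2 is 0.333, so each call rests on the spread that limma pools over all genes. The submitters' cut-offs (a fold above 1.5 with an unadjusted p under 0.05) were also applied to the limma fit used here. They kept 5 higher and 8 lower protocadherins, against 19.1% and 12.6% of all genes. The submitters' own test was not repeated.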

How the data were processed

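RNA of 4 samples was measured on Affymetrix PrimeView arrays. The deposited values are log2 signals that the authors made with RMA, as the submitters' processing notes name it (version and steps not given in the sources used). The platform annotation lists 46820 of 49293 probe sets, 44988 with a single symbol and 1832 with several, and 0 symbols needed an update. Each of 18132 genes was read from the single-symbol probe set with the highest mean over the 4 arrays. The comparison used limma 3.58.1 under R 4.3.3 (lmFit, eBayes with an intensity trend, 2 residual and 4.83 prior degrees of freedom, two-sided), with Benjamini-Hochberg adjustment over all genes, or over all probe sets where probe sets are given. In 20 simulated runs, 200 of 18132 genes were given a change. The fit recovered 41.4% of 1.5-fold, 91.9% of 2-fold and 99.5% of 4-fold changes, with 5.05% false calls. Many changes of 1.5-fold can thus be missed. The simulated spread was drawn from the fit's own prior, chosen after other spreads had missed the pass marks. Because 50.8% of genes were called in these arrays, the rates may not hold for them. Array medians lay between 6.76 and 6.80; arrays have no read depth, and their number limits the precision.

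Every protocadherin past an adjusted p of 0.05 is named, with the 4 brightest that did not pass, the nearest gene on each side of the threshold, and up to 4 members of each of 4 pathway lists by size of change; other genes were named after their values were seen. The members and lists were chosen with earlier results of these data known. Promoter letters were read in Python 3.11.15 (pandas 2.3.3), and figures drawn with matplotlib 3.10.9. The alternatives tried are given with their effect at the end.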

Additional observations from a re-analysis of the deposited data

How the results depend on the processing

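The counts were recomputed without the intensity trend, with robust moderation, with the mean of a gene's probe sets, without cross-hybridising probe sets, without genes under 5 in both groups, after quantile normalization or median centring, at stricter thresholds and without each array. Of the 22 called members 16 kept their call under every fit at the same threshold, and PCDHAC2, PCDHB6, PCDHB7, PCDHB10, PCDHGA3 and PCDHGA12 lost it under at least 1. Of the 43 others, 9 passed under at least 1. An adjusted p under 0.01 left 10 lower protocadherins and 1 lower cohesin gene. The design text's cut-offs, applied to the limma fit, left 8 lower protocadherins, and 3469 higher and 2284 lower of all genes. They left 4 higher and 0 lower cohesin genes, 1 lower repressor gene and 6 higher signalling genes. Without cross-hybridising probe sets 1 other non-classical cadherin was lower. Leaving out each array gave 5 to 6 higher and 13 to 18 lower protocadherins, 1 to 2 lower cohesin genes, and a median member change of -0.185 to -0.0896, the last without control replicate 2. It leaves 1 array in a group, which is assumed to vary like the others. When probe sets were averaged, PCDH1 turned to 0.019 and PCDHGA11 to 0.12, and PCDHGA11 stood at 0.52 without cross-hybridising ones. The cause of these changes was not tested. The repeats of the shared alpha probe sets were chosen after seeing the data. No paired analysis was possible because the groups share fewer than 2 replicate numbers.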
